A study of Mus musculus with 8 samples.

Results

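The 10 genes described here restrain signalling from Toll-like receptors (TLRs) and cytokine receptors, and were measured in mouse macrophages that carry or lack FURIN. They are Socs1, Socs3, Cish, Irak3, Tollip, Sigirr, Zc3h12a, Zfp36, Tnip1 and Tnip3. They were chosen by gene name, and each is represented by the probe with the highest mean signal over all arrays. All 10 of 10 were measured, through 14 probes in all, among 37018 genes and unnamed transcripts on the arrays. The study compared peritoneal macrophages of LysMCre-fur fl/fl mice (FURIN KO), on a C57BL/6 background, with those of wild-type littermates (WT). Adherent peritoneal cells were cultured and then given lipopolysaccharide (LPS), the TLR4 ligand of Gram-negative bacteria, at 1 µg/ml for 1, 4 or 24 h, or none (0 h). The RNA of each genotype and time was hybridised on 2 arrays, so 8 arrays with a KO and a WT channel each gave 16 RNA samples. KO RNA carried Cy5 in replicate 1 and Cy3 in replicate 2. LysM-Cre recombines floxed genes in myeloid cells, neutrophils as well as macrophages, and the transgene sits in the Lyz2 locus. The age of the mice and any pooling of animals are not given for the arrays in the sources used here, and the study describes the 2 replicates as biological, from independent experiments. Times were taken from the sample titles, because the protocol text in the labels gives 4 h for every sample.

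TLR4 reaches NF-kappa B through MyD88 and IRAK kinases, and the cytokines made in response then act through JAK kinases and STAT factors. Macrophages limit both routes with induced inhibitors. Some block kinases or receptors, some destroy the messenger RNA of inflammatory genes, and some bind ubiquitin chains and cooperate with the deubiquitinating enzyme A20. Many of these inhibitors are themselves targets of NF-kappa B or STAT factors, which makes them feedback brakes.

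All 10 chosen probes were well above background in all 16 channels and none was saturated. Between 43.8% and 51.3% of gene spots passed that mark in a channel, and the number of arrays limits the precision. The 9 measured macrophage markers were well above background in every channel. Furin, the targeted gene, gave log2 KO/WT ratios of -0.59 and -0.85 without LPS, -0.56 and -0.55 after 1 h of it, and -0.59 and -0.69 after 24 h. The study reports that Furin mRNA was nearly all lost in macrophages of these mice, a larger loss than these array ratios show. At 4 h Lyz2, where the Cre transgene sits, was at -1.04 and -1.13. The Furin ratios there were 0.00 and 0.33, so by its array probe the RNA labelled KO did not have less Furin. Directions drawn from the 4 h arrays are therefore those of the RNA labelled KO or WT. In bulk RNA, fewer cells of a type and less RNA per cell cannot be told apart.

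LPS raised most of the brakes in both genotypes. Levels below are normalised log2 intensities of a channel (replicate 1, then replicate 2), and a change is the difference of group means, tested with limma over all genes and transcripts at an adjusted p of 0.05. In WT cells 8 of 10 rose at 1 h, 8 rose and 1 fell at 4 h, and 7 rose and 1 fell at 24 h. Of all genes and transcripts tested, 3.36% rose and 5.16% fell after 1 h, 15.5% and 19.2% after 4 h, then 13.5% and 16.9% after 24 h. In KO cells 6 of 10 rose at 1 h, where 3.08% of all genes and transcripts rose and 4.45% fell. At 4 h, 8 rose and 1 fell in the RNA labelled KO, where the shares over all genes and transcripts were 16.3% and 19.7%. At 24 h, 8 rose and 1 fell in KO cells, against 12.8% and 15.9%. The median log2 change of the 10 in WT was 1.60, 2.95 and 1.81 after 1, 4 and 24 h, against 1.37, 2.82 and 1.75 in KO, while the median over all genes and transcripts stayed between -0.02 and 0.0016. With the t-test of the study's methods, which takes the spread of each gene from its own 4 values, 0, 2 and 0 of the 10 passed in WT and 0, 2 and 1 in KO after the same adjustment.

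**Figure D1:**
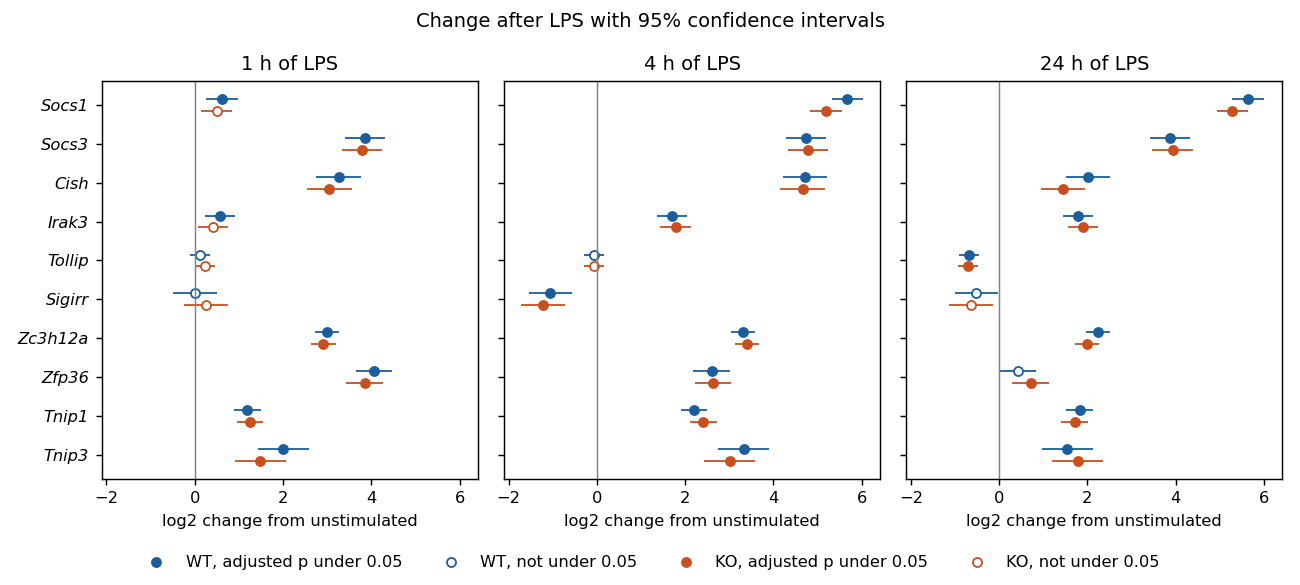
Log2 change after LPS against 0 h for the 10 brakes in WT and KO cells at 1, 4 and 24 h, as points with 95% confidence intervals; filled points passed an adjusted p of 0.05. Socs1 sat at 0.61 in WT at 1 h and above 5 at 4 and 24 h, Zfp36 was highest at 1 h, and Tollip and Sigirr lay at or below 0 at 24 h.

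Between 1 and 4 h, 6 of 10 rose further and 2 fell in WT (14% and 15.6% of all genes and transcripts), and 7 rose and 2 fell in the RNA labelled KO (15% and 16.8%). Between 4 and 24 h none rose and 6 fell in WT (15.1% and 14.6% of all), and none rose and 7 fell in KO (15.7% and 15.1%). At an unadjusted p under 0.05 Sigirr was higher at 24 h than at 4 h, by 0.54 in WT and by 0.59 in KO, and did not pass after adjustment by limma (adjusted p = 0.103 and 0.0701). With loess alone, without quantile normalisation, that rise was 0.96 in WT and 1.02 in KO and passed (adjusted p = 0.00810 and 0.00506). It also passed with the replicate number as a block and a dye term (0.00522 and 0.00267), in WT without 4 h replicate 2 (0.0291) and in KO without 4 h replicate 1 (0.0474), so the count of genes that rose from 4 to 24 h depends on the processing.

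The 3 SOCS-family members, which bind cytokine receptors or their JAK kinases, kept different times. Socs1, an inhibitor of JAK kinases downstream of interferon receptors, was at 7.40 and 7.72 in WT at 0 h, 8.10 and 8.25 after 1 h, 13.37 and 13.10 after 4 h, then 12.98 and 13.41 after 24 h. In KO cells the same probe gave 8.06 and 7.93, then 8.59 and 8.39, then 13.05 and 13.33, then 13.23 and 13.33. The 4 h and 24 h channels lay more than 4 log2 units above every earlier channel of either genotype. WT Socs1 thus rose 51.0-fold by 4 h (95% CI 39.8 to 65.4, adjusted p = 2.26e-11) and remained 49.6-fold up at 24 h, and these times did not differ beyond their spread (adjusted p = 0.910). In KO the rises were 36.6-fold and 39.0-fold. The early rise was small, 1.53-fold in WT (adjusted p = 0.0347) and 1.41-fold in KO (adjusted p = 0.101). That WT call was lost without 0 h replicate 1 (adjusted p = 0.323) or without either 1 h array (0.0895 and 0.235).

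Socs3, which blocks signalling from the IL-6 receptor subunit gp130, stood at 12.15 and 11.77 in WT at 0 h, 16.13 and 15.51 after 1 h, 16.92 and 16.46 after 4 h, then 15.96 and 15.70 after 24 h. KO channels read 12.12 and 11.90, 15.71 and 15.89, 16.69 and 16.88, and 15.83 and 16.05. Every stimulated channel was above every unstimulated one, and KO and WT values overlapped at each time. The rise was already 14.5-fold at 1 h in WT (95% CI 10.6 to 19.9, adjusted p = 4.69e-08) and 13.8-fold in KO (adjusted p = 7.19e-08). It reached 26.5-fold and 27.4-fold at 4 h and was 14.6-fold and 15.2-fold at 24 h, and the 24 h and 1 h levels did not differ beyond their spread (adjusted p = 0.990 in WT and 0.739 in KO). The difference between 1 and 4 h in WT (0.87, adjusted p = 0.00573) was lost without 1 h replicate 2 (0.0986) or 4 h replicate 1 (0.0861). The WT fall from 4 to 24 h (-0.86, adjusted p = 0.00618) was lost without 4 h replicate 1 (0.0895) or 24 h replicate 2 (0.0739), and the KO fall (-0.85, adjusted p = 0.00662) without 24 h replicate 1 (0.0655).

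SOCS genes are known STAT targets, so the promoters of the 10 genes were searched on both strands for the STAT pattern TTCNNNGAA, a kappa B pattern of GGG and CC with any 5 bases between, and the AP-1 pattern TGANTCA, in windows of 250 bases before to 50 after the start (RefSeq, GRCm38.p6). Entries were held for 9 of the 10 genes, with 2 for Irak3 and none for Sigirr. The STAT pattern occurred in the windows of 4 members, Socs3, Cish, Zfp36 and Tnip1, and in 8.3% of all 32851 promoters. The kappa B pattern is loose, occurring in all 9 members with an entry and in 50.8% of all promoters, and the AP-1 pattern was in none of the 9 and in 7.81% of all. A match is a description of letters, not of binding. The 250 bases before the Socs3 start, chr11:117969367-117969616 on the minus strand, are shown because Socs3 had the largest fold change at 1 h in the SOCS family, with the STAT pattern, 154 bases before the start, in capitals:
Socs3: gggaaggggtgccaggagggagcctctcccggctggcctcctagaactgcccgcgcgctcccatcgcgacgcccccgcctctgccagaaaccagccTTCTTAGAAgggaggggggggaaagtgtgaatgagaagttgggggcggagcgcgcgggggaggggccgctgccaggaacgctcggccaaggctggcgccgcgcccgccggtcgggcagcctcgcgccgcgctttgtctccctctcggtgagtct

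Cish, which competes with STAT5 for its docking sites on cytokine receptors, was at 8.62 and 8.40 in WT at 0 h, 12.12 and 11.42 after 1 h, 13.50 and 12.95 after 4 h, then 10.44 and 10.60 after 24 h. The KO channels were at 9.21 and 8.63, 11.94 and 12.00, 13.73 and 13.43, and 10.43 and 10.31. In contrast to Socs1, Cish had lost most of its rise by 24 h in both genotypes. The increase in WT was 9.59-fold at 1 h, 26.2-fold at 4 h (95% CI 18.5 to 37.2, adjusted p = 2.23e-09) and 4.03-fold at 24 h, and in KO it was 8.28-fold, 25.3-fold and 2.73-fold (adjusted p = 0.000258). From 4 to 24 h Cish fell by 2.70 on the log2 scale in WT and by 3.21 in KO. Its window held 2 STAT patterns within 30 bases at the start, chr9:107296654-107296683 on the plus strand, in capitals:
Cish: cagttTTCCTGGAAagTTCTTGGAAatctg

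**Figure D2:**
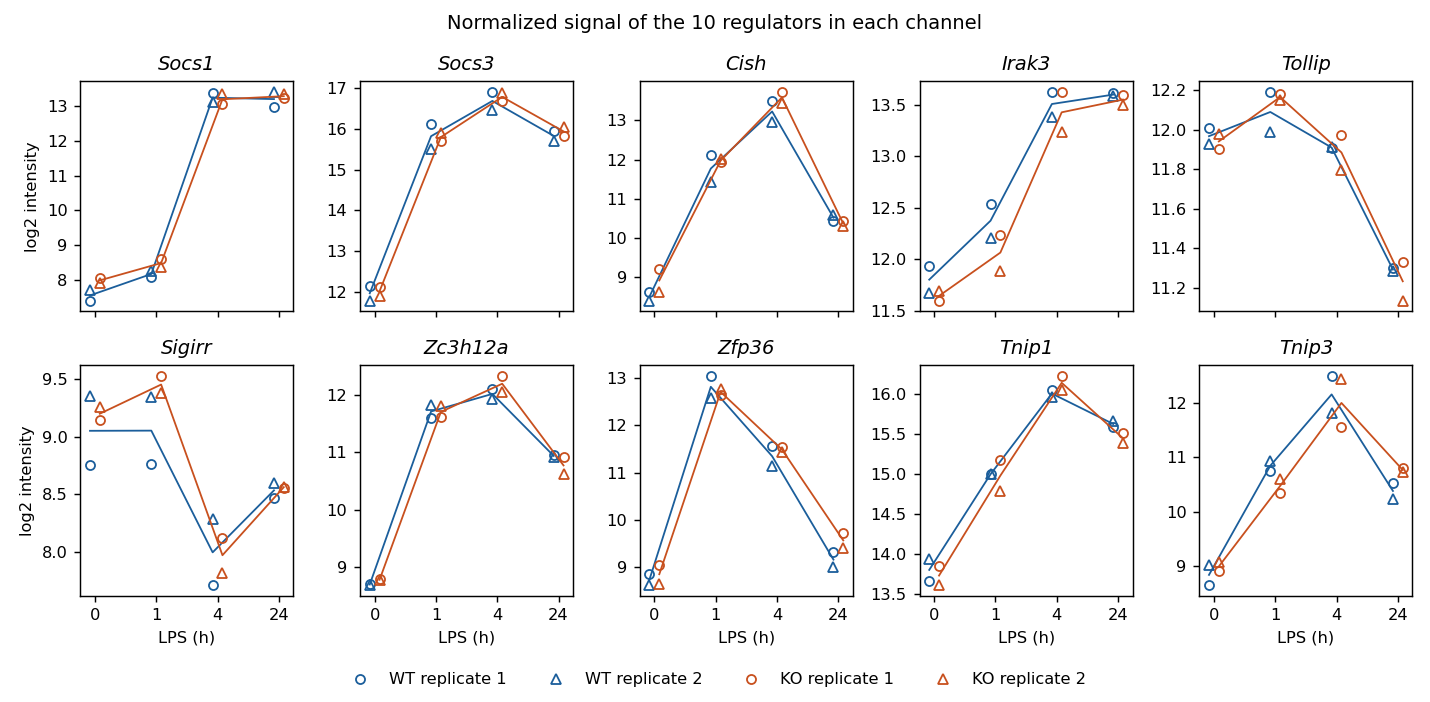
Normalised log2 intensity of each of the 10 genes in the 16 channels against hours of LPS, with WT and KO replicates as single points and lines through the group means. Socs1 is at 7.40 to 8.59 at 0 and 1 h and at 12.98 to 13.41 at 4 and 24 h, Zfp36 peaks at 1 h, and Sigirr has its lowest values at 4 h.

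Among the brakes that act at TLR and IL-1 receptors, only Irak3 rose by the probes used. Irak3 (IRAK-M), a pseudokinase that holds IRAK1 and IRAK4 at the receptor, was at 11.94 and 11.67 in WT at 0 h, 12.54 and 12.21 after 1 h, 13.63 and 13.39 after 4 h, then 13.61 and 13.59 after 24 h. KO values were 11.60 and 11.70, 12.24 and 11.89, 13.62 and 13.23, and 13.60 and 13.50. The 4 h and 24 h channels were all above the earlier ones. Irak3 rose 3.26-fold in WT by 4 h (95% CI 2.57 to 4.13, adjusted p = 9.57e-07) and 3.44-fold in KO, and 24 h did not differ from 4 h (adjusted p = 0.766 and 0.659). The 1 h change was 1.49-fold in WT (adjusted p = 0.0394) and 1.34-fold in KO (adjusted p = 0.154). That WT call was lost without 0 h replicate 1 (adjusted p = 0.0722), 0 h replicate 2 (0.309), 1 h replicate 1 (0.258) or either 24 h array (0.0739).

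Tollip, an adaptor that binds IRAK1 and holds it inactive, gave 12.01 and 11.93 in WT at 0 h, 12.19 and 11.99 after 1 h, 11.90 and 11.91 after 4 h, then 11.30 and 11.28 after 24 h. Its KO values were 11.90 and 11.98, 12.18 and 12.15, 11.97 and 11.80, and 11.33 and 11.13. The 4 channels of 24 h were the lowest and the earlier times overlapped. By this probe Tollip fell 1.60-fold by 24 h in WT (95% CI 1.37 to 1.87, adjusted p = 0.000169) and 1.63-fold in KO (adjusted p = 0.000118), and the changes at 1 and 4 h did not pass (adjusted p 0.278 to 0.761). Its KO difference between 1 and 4 h (-0.28, adjusted p = 0.0571) passed with the replicate number as a block (adjusted p = 0.0464). The other two Tollip probes did not give the same course. With mean log2 intensities of 9.67 and 8.83 against 11.8 for the probe used, they changed in WT by 0.97 and 1.20 at 4 h and by 0.46 and 0.19 at 24 h, where the brightest gave -0.06 and -0.68. With all 3 probes averaged, Tollip rose by 0.70 at 4 h in WT (adjusted p = 5.54e-05) and by 0.66 in KO (adjusted p = 9.54e-05), and gave -0.01 and -0.05 at 24 h (adjusted p = 0.966 and 0.804). The direction of Tollip therefore depends on the probe.

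**Figure D3:**
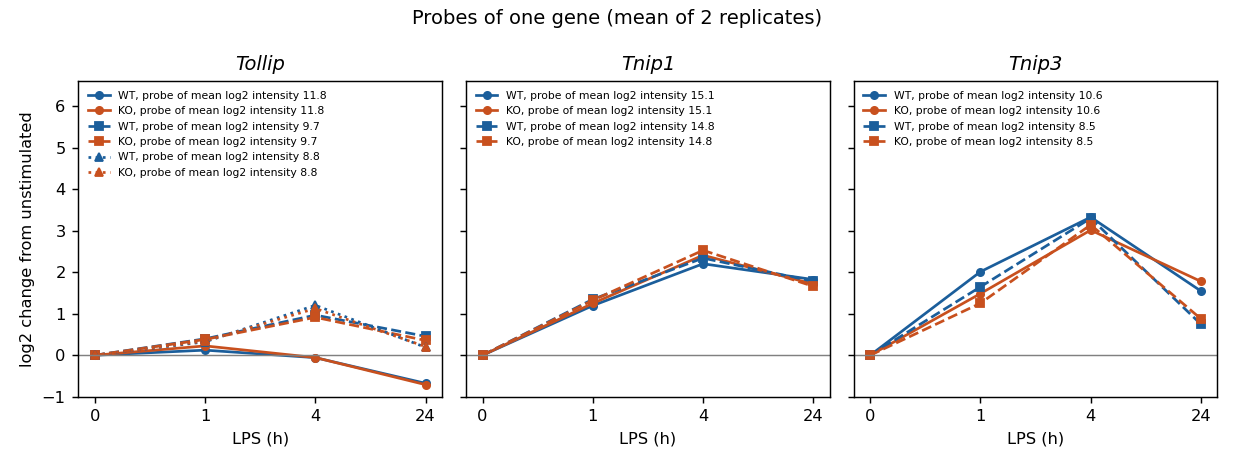
Log2 change after LPS in WT and KO cells for each probe of the 3 genes with several probes, labelled by mean log2 intensity. The 3 Tollip probes part at 4 and 24 h, whereas the 2 Tnip1 probes and the 2 Tnip3 probes run the same way.

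The probes of Tnip1 and Tnip3 did run the same way, so Tollip was alone in this among the 3 genes with more than 1 probe. For Sigirr, an IL-1 receptor family member that dampens TLR and IL-1 signalling, WT levels were 8.75 and 9.35 at 0 h, 8.76 and 9.34 after 1 h, 7.71 and 8.28 after 4 h, then 8.47 and 8.60 after 24 h. KO levels were 9.14 and 9.26, 9.53 and 9.37, 8.12 and 7.82, and 8.56 and 8.57. The 4 h channels were the lowest of each replicate in both genotypes. Sigirr fell 2.07-fold at 4 h in WT (95% CI 1.47 to 2.92, adjusted p = 0.00209) and 2.34-fold in the RNA labelled KO (adjusted p = 0.000620). The WT call was lost without 0 h replicate 2 (adjusted p = 0.0501), and the WT fall from 1 to 4 h (-1.05, adjusted p = 0.00254) without 1 h replicate 2 (0.0510). At 24 h the changes were -0.52 in WT (adjusted p = 0.117) and -0.64 in KO (adjusted p = 0.0534). The WT value was -0.82 and passed without 0 h replicate 1 (adjusted p = 0.0406), and it passed with the replicate block and a dye term (0.00670). With the replicate block the KO value passed (adjusted p = 0.0380), and it also passed without any one of the 1 h arrays (0.0422) or 4 h arrays (0.0340).

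Sums of lymphocyte markers were also lowest or near their lowest at 4 h. The summed intensity of the 8 T and NK cell markers was, on the log2 scale, 13.45 and 14.27 in WT at 0 h and 12.65 and 13.28 at 4 h, and 14.03 and 14.23, then 12.95 and 12.86, in KO. The sum of the 7 measured B cell markers went from 16.28 and 16.71 in WT at 0 h to 15.32 and 15.59 at 4 h, and from 16.48 and 16.99 to 14.97 and 15.53 in KO. At 24 h the T and NK sum was at 13.16 and 13.34 in WT and 13.43 and 13.44 in KO. The B cell sum was at 15.41 and 15.35 in WT and 15.50 and 15.65 in KO, so in WT it was about as low as at 4 h. Sigirr in WT was 0.54 above its 4 h level, a difference that did not pass by limma (adjusted p = 0.103). Over the 16 channels, which share arrays and time points, Pearson's r of Sigirr was 0.978 with the T and NK sum and 0.895 with the B cell sum. It was 0.573 with the macrophage sum (0.751 without Lyz2), -0.790 with mast cell markers and 0.822 with the 4 eosinophil markers, of which none was well above background in all channels. Among the 8 single mast cell markers, r with Sigirr was -0.847 for Hdc and between -0.092 and 0.097 for the others. Of the 8 T and NK markers, 5 were well above background in all channels, Ncr1 and Klrb1c in none. At 4 h in WT, 1 of the 8 fell (Cd2, by 1.77), 1 rose (Gzma) and 6 did not pass, and in KO 2 fell and 1 rose. Of all genes and transcripts 15.5% rose and 19.2% fell at 4 h in WT, and 16.3% and 19.7% in KO. Of the B cell markers, 4 fell and 2 rose in WT at 4 h, and Cd79b fell by 3.05. Among single T and NK cell and B cell markers r ranged from 0.957 for Cd2 to -0.833 for Gzma. The part of lymphocytes in the Sigirr values was not tested. Macrophage markers also fell at 4 h, 6 of 9 in WT and 5 of 9 in KO, and their sum went from 19.23 and 18.96 at 0 h to 18.23 and 17.95 at 4 h in WT.

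**Figure D4:**
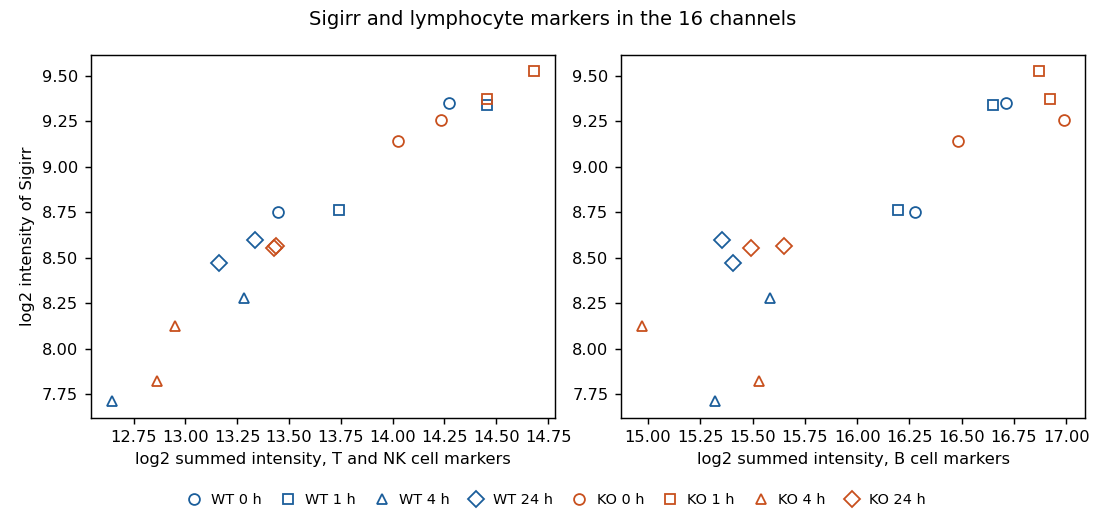
Normalised log2 intensity of Sigirr against the log2 summed intensity of T and NK cell markers and of B cell markers in the 16 channels, with time points and genotypes marked. The 4 h channels lie at the low end of both, with Pearson's r of 0.978 and 0.895.

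The 2 brakes that act on messenger RNA rose within 1 h. Zc3h12a (Regnase-1), an endonuclease that cleaves stem loops in inflammatory transcripts, was at 8.72 and 8.69 in WT at 0 h, 11.59 and 11.82 after 1 h, 12.10 and 11.93 after 4 h, then 10.95 and 10.92 after 24 h. KO channels gave 8.79 and 8.78, 11.61 and 11.79, 12.33 and 12.05, and 10.92 and 10.62. Every stimulated channel exceeded every unstimulated one by more than 1 log2 unit. The rise was 8.02-fold at 1 h in WT (95% CI 6.63 to 9.71) and 7.54-fold in KO (adjusted p = 8.17e-09), 9.91-fold and 10.6-fold at 4 h, and 4.70-fold and 3.96-fold at 24 h. The step from 1 to 4 h did not pass in WT (0.30, adjusted p = 0.0966) and passed in KO (0.49, adjusted p = 0.00850), where it was lost without 1 h replicate 1 (0.0889) or 4 h replicate 1 (0.108). From 4 to 24 h Zc3h12a fell by 1.08 in WT and by 1.42 in KO. The difference between KO and WT, taken from the ratios, was 0.18 for the first of these steps (95% CI -0.13 to 0.50) and -0.34 for the later one (95% CI -0.65 to -0.03), and neither passed (adjusted p = 0.999 and 1.00).

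Zfp36 (tristetraprolin), which binds AU-rich elements and speeds decay of cytokine transcripts, had the earliest peak among the genes that rose. It was at 8.87 and 8.63 in WT at 0 h, 13.05 and 12.58 after 1 h, 11.56 and 11.14 after 4 h, then 9.32 and 9.01 after 24 h. In KO it gave 9.06 and 8.66, 12.65 and 12.76, 11.54 and 11.44, and 9.73 and 9.41. The 4 channels at 1 h were above all others, and the 4 h channels lay between. Zfp36 rose 16.7-fold at 1 h in WT (95% CI 12.6 to 22.3) and 14.4-fold in KO (adjusted p = 2.41e-08), and was 6.06-fold and 6.19-fold up at 4 h. At 24 h it was 1.34-fold above 0 h in WT (adjusted p = 0.129, or 0.0303 with the replicate block) and 1.64-fold in KO (adjusted p = 0.0109). The KO call was lost without 0 h replicate 2 (adjusted p = 0.139) or 24 h replicate 1 (0.119). The Zfp36 sequence before the start, chr7:28379229-28379478 on the minus strand, is shown because the gene peaked first among those that rose; its STAT pattern, 17 bases before the start, is in capitals:
Zfp36: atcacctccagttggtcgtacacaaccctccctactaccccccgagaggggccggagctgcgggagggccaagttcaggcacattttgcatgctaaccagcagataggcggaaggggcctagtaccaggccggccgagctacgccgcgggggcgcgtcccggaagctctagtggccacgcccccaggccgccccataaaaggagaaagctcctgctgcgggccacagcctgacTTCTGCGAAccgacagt

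Targets of these decay factors rose with them. Of 19 transcripts listed as targets of Zfp36 or Zc3h12a, 18 were measured, and 15, 17 and 15 of them rose at 1, 4 and 24 h in WT, with the same counts in KO and none that fell. Their median log2 changes were 4.97, 4.97 and 4.15 in WT and 3.88, 4.67 and 3.89 in KO. These changes are counted from 0 h, and before LPS the median log2 KO/WT ratio of the 18 was already 0.51. Under LPS that median was 0.01 (1 h), 0.27 (4 h) and -0.08 (24 h). None of the 18 passed in the ratio of a single time, or in its difference from the ratio before LPS. The study reports higher Il6, Il1b, Ptgs2 and Ccl2 in resting macrophages without FURIN. The list is short and made of inflammatory genes, so its counts describe these genes and no decay rate was measured. Il6 was up by 9.19, 9.55 and 9.42 in WT at the 3 times. Tnf, by contrast, was up by 6.81 and 7.04 and then by 2.74 at 24 h.

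Tnip1 and Tnip3 encode ABIN-1 and ABIN-3, ubiquitin-binding partners of A20. Tnip1 was at 13.66 and 13.94 in WT at 0 h, 15.00 and 14.99 after 1 h, 16.05 and 15.96 after 4 h, then 15.59 and 15.66 after 24 h. KO values were 13.85 and 13.61, 15.17 and 14.79, 16.22 and 16.05, and 15.51 and 15.38. The times did not overlap in either genotype. Tnip1 rose 2.29-fold, 4.60-fold and 3.54-fold in WT at 1, 4 and 24 h and 2.38-fold, 5.30-fold and 3.28-fold in KO (adjusted p = 6.36e-05 at 1 h). The fall from 4 to 24 h passed in KO (-0.69, adjusted p = 0.00147) and not in WT (-0.38, adjusted p = 0.0573). The WT value passed with processed signals (adjusted p = 0.0259), with both probes averaged (-0.47, adjusted p = 0.00405), with a dye term added to the replicate block (0.0105) and without any one of the 0 h or 1 h arrays (0.0458). The difference between KO and WT in this step, taken from the ratios, was -0.31 and did not pass (95% CI -0.77 to 0.14, adjusted p = 1.00). Its sequence before the start, chr11:54962941-54963190 on the minus strand, is shown for the overlapping kappa B matches 58 to 56 bases before the start, which capitals mark together with a STAT pattern:
Tnip1: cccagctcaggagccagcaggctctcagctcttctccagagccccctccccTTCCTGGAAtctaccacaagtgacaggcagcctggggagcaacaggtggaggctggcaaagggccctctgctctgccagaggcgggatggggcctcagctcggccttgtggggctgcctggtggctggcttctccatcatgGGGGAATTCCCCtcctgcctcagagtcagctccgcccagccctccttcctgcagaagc

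Tnip3 was at 8.65 and 9.03 in WT at 0 h, 10.76 and 10.94 after 1 h, 12.50 and 11.82 after 4 h, then 10.53 and 10.23 after 24 h, and in KO at 8.91 and 9.07, 10.35 and 10.60, 11.56 and 12.45, and 10.80 and 10.74. Its standard error, 0.27, was the largest of the 10, and its replicates lay farthest apart at 4 h. Tnip3 rose 4.03-fold at 1 h in WT (95% CI 2.70 to 6.02, adjusted p = 0.000237), 10.0-fold at 4 h and 2.92-fold at 24 h. In KO the rises were 2.80-fold (adjusted p = 0.00322, or 0.0549 without 1 h replicate 2), 8.07-fold and 3.43-fold. The 24 h and 1 h levels did not differ beyond their spread in either genotype (adjusted p = 0.256 and 0.529). The sequence before its start, chr6:65590148-65590397 on the plus strand, is shown beside that of its relative, with kappa B patterns in capitals:
Tnip3: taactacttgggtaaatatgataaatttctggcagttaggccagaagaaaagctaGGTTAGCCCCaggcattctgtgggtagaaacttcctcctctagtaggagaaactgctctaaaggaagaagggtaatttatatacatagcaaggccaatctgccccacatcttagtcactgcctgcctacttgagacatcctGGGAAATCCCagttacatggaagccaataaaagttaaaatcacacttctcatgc

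Which genes ran with each brake was described by Pearson's r over the 16 channels among 20834 named genes, channels that share arrays, time points and dyes. Among the 10 themselves, Irak3 ran most like Socs1 (r = 0.960), Socs3 like Zc3h12a (0.957), Cish like Zc3h12a (0.943) and Socs3 like Tnip1 (0.939), while Socs1 and Zfp36 were at -0.06. Over all genes, Socs1 was most like Isg20 (0.997) and Cycs (0.996), Zfp36 like Gem (0.992) and Csrnp1 (0.988), and Zc3h12a like Tnfaip3 (0.990), the gene of A20, and Nod2 (0.989). Socs3 ran nearest to Il1a (0.990) and Ptgs2 (0.988), and Cish to Osm (0.987) and Nfkbib (0.984). For Irak3 the nearest were Pilra (0.985) and Lyrm1 (0.981), for Tnip1 Dusp16 (0.986) and Traf1 (0.985), and for Tnip3 Tiparp and Arid5a (both 0.979). Sigirr was nearest to Ets1 (0.985) and 5830428M24Rik (0.983), and Tollip to Nkg7 (0.975) and Inafm1 (0.969). With summed markers, Tollip had an r of 0.784 for macrophages, 0.436 for T and NK cells, 0.576 for B cells, 0.06 for mast cells, -0.929 for neutrophils and -0.956 for mesothelial cells and fibroblasts. Its r with single macrophage markers ran from 0.938 for Timd4 to -0.908 for Fcgr1. With single neutrophil markers it ran from 0.903 for Elane to -0.937 for S100a8, and 4 of the listed neutrophil markers were well above background in no channel. With single mesothelial cell and fibroblast markers it ran from 0.727 for Krt19 to -0.970 for Dcn, and 2 of these 8 were well above background in all channels. Among the 8 mast cell markers it was 0.645 to 0.875 for all but Hdc (-0.391), and 5 of the 8 fell and 1 rose at 24 h in each genotype. Of the 9 measured macrophage markers, 7 fell and 1 rose at 24 h in WT, with the same counts in KO, and the part of these cell types in the Tollip values was not tested.

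Other brakes of the same pathways moved in both directions. Of 44 measured, 15 rose and 4 fell in WT after 1 h, 25 and 10 after 4 h, then 15 and 16 after 24 h, with median log2 changes of 0.10, 0.69 and -0.18. Over all genes and transcripts the shares that rose and fell were 3.36% and 5.16%, 15.5% and 19.2%, and 13.5% and 16.9% at those times, and they serve for the decay targets, the receptors and the markers in WT too. In KO 14 rose and 4 fell, then 24 and 8, then 15 and 15. Tnfaip3 rose by 4.01, 4.08 and 2.45 in WT at the 3 times and by 3.64, 4.02 and 2.41 in KO. Il10, the anti-inflammatory cytokine, rose by 2.65, 4.71 and 3.40 in WT. Usp18, a brake on the type I interferon receptor, changed by -0.88, 4.57 and 3.75. Of 35 measured receptors, adaptors and kinases that the 10 act on, 8 rose and 3 fell in WT after 1 h, 17 and 10 after 4 h, then 12 and 13 after 24 h. In KO 8 rose and 7 fell after 1 h, and the later counts were the same as in WT. Jak2, a kinase that Socs1 inhibits, changed by 0.54, 3.28 and 2.26, and Il6ra, the IL-6 receptor chain, by -0.73, -3.39 and -1.76.

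The second question of the design was whether cells without FURIN held the brakes at other levels than WT cells. KO and WT RNA of a replicate shared an array, so each array gave a log2 KO/WT ratio, and limma was fitted to the ratios. None of the 10 passed at 0, 1, 4 or 24 h or in the mean over times, with member medians of 0.10, -0.01, 0.04, -0.01 and 0.04. Over all genes and transcripts, 0% passed at 0 h, 0% at 1 h, 0.00812% at 4 h, 0.0244% at 24 h and 0.563% in the mean over times. At an unadjusted p under 0.05, 2 of the 10 stood out at 0 h, 1 at 1 h, 0 at 4 h, 1 at 24 h and 3 in the mean over times, against 2126, 2017, 1592, 1263 and 3935 of all 36947 genes and transcripts. The methods' t-test, run at 0 h, passed 0 of the 10 and 0 of all after adjustment. With the replicate block 393, 213, 210 and 216 of all passed at the 4 times and 2219 in the mean over times, and none of the 10 did. The median half-width of a member's 95% CI was 0.35 log2 units at one time and 0.18 in the mean over times. Some larger differences also failed the adjustment at a single time: Furin itself, at -0.72 at 0 h, -0.56 at 1 h and -0.64 at 24 h, did not pass (adjusted p = 0.161, 0.462 and 0.184), nor did Lyz2 at 0 h (-0.90, adjusted p = 0.104). With the replicate block they did (0.0123, 0.0477 and 0.0227 for Furin and 0.00235 for Lyz2). Lyz2 at 24 h did pass (-1.73, adjusted p = 0.00631), and both genes passed in the mean over times in either fit.

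**Figure D5:**
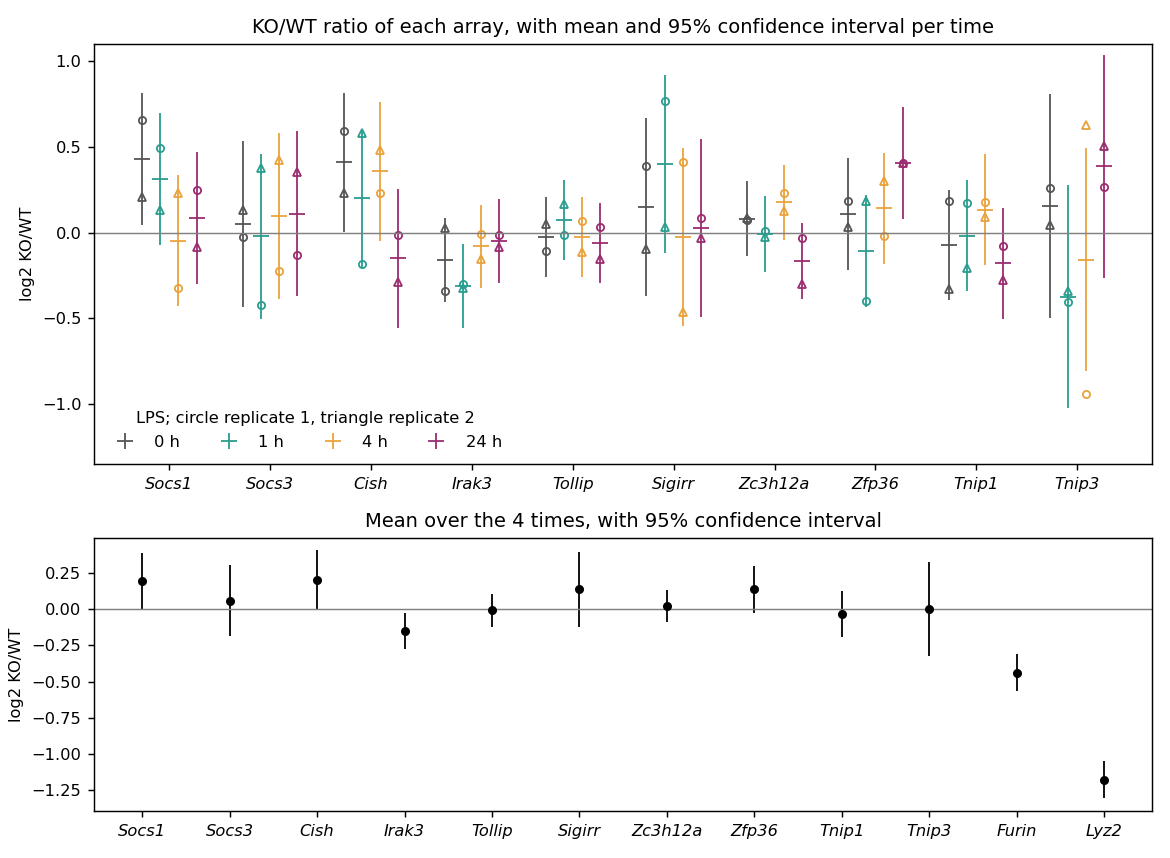
Log2 KO/WT ratio of each gene on the 8 arrays by time, as single points with the mean and its 95% CI, and below it the mean over times with Furin and Lyz2 added. In the mean over times the 10 brakes run from -0.15 (Irak3) to 0.20 (Cish), with Furin at -0.44 and Lyz2 at -1.18.

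At 0 h Socs1 had ratios of 0.66 and 0.21, a mean of 0.43 (95% CI 0.05 to 0.82, adjusted p = 0.771), and Cish had 0.59 and 0.23, a mean of 0.41 (95% CI 0.01 to 0.82, adjusted p = 0.850). Both replicates of both genes were above 0, yet neither passed. Irak3 at 1 h had -0.30 and -0.32, a mean of -0.31 (95% CI -0.55 to -0.06, adjusted p = 0.768). Zfp36 at 24 h had 0.40 and 0.41 (95% CI of the mean 0.08 to 0.73, adjusted p = 1).

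In the mean over times Irak3 was at -0.15 (95% CI -0.27 to -0.03, adjusted p = 0.337) and below 0 on 7 of 8 arrays. Socs1 and Cish were both at 0.20 (adjusted p = 0.457 and 0.462), above 0 on 6 and 5 of 8 arrays. The other members had adjusted p of 0.583 or more, and the replicate block added no call. Without the 4 h arrays, a choice made after seeing Furin there, Irak3 was at -0.17 (adjusted p = 0.379), Socs1 at 0.28 (0.366) and Cish at 0.15 (0.748), while Furin was at -0.64 (adjusted p = 0.0205). Irak3 lies on chromosome 10, as does Lyz2, with 16 measured named genes between them. Those 16 had mean ratios from -0.38 to 0.78 with a median of 0.06, and 0 passed by limma (2 with the replicate block). Zfp36, Tollip and Sigirr share chromosome 7 with Furin.

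For several members the 2 arrays of a time parted. Tnip3 at 4 h had -0.94 and 0.63, Sigirr 0.41 and -0.46, Socs3 -0.22 and 0.42 and Socs1 -0.32 and 0.23, and at 1 h Socs3 had -0.42 and 0.38. Dye and replicate are one factor here and cannot be told apart. Zc3h12a stayed between -0.30 and 0.23 on all 8 arrays, Tollip between -0.15 and 0.17 and Tnip1 between -0.33 and 0.19.

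Whether the LPS response itself differed was tested as the KO/WT ratio at 1, 4 or 24 h minus that at 0 h. Of all genes and transcripts 0% passed at 1 h, 0% at 4 h and 0% at 24 h by limma, and 0 of the 10 did. At an unadjusted p under 0.05 the counts were 0, 0 and 0 of the 10 and 517, 1073 and 1230 of all. With the replicate block 0, 13 and 78 of all passed, and none of the 10. The member nearest to a difference was Cish at 24 h, with -0.56 (95% CI -1.13 to 0.01, adjusted p = 1.00). Among the other brakes, the decay targets and the receptors and carriers, Ccl2, a chemokine transcript of the decay list, was the only one to pass by limma in a KO/WT comparison, with a mean over times of 0.72 (adjusted p = 0.0267).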

How the data were processed

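Two-colour Agilent mouse arrays (4 time points, 2 arrays each) carried KO and WT RNA of a replicate on the same array. The authors' deposited scanner files hold a median intensity per spot and channel, extracted with Agilent Feature Extraction (version 10.7.3 in the submitters' processing notes) and not normalised between arrays. The deposited matrix holds the authors' normalised log2 ratios of Cy5 to Cy3, used as an alternative. Its columns correlated with the ratios computed here at r 0.987 to 0.996. A mean intensity had been planned, but the median was used because the files hold it. Sequences are RefSeq promoters of GRCm38.p6.

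Intensities were corrected with limma 3.58.1 (normexp, offset 50), loess-normalised within arrays and quantile-normalised between them in R 4.3.3. The loess and quantile steps and the intensity cut of 6 follow the study's methods, which then used a t-test. Those methods name no normexp offset, and after the offset the cut kept 36947 of 37018 genes and transcripts. Outlier spots were left out, the probe with the highest mean stood for a gene, and genes needed a mean log2 intensity of 6. Changes with LPS came from a separate-channel fit over 16 channels (statmod 1.5.0, within-spot correlation 0.107, 36927 genes and transcripts), and KO/WT differences from a fit of dye-oriented ratios over 8 arrays (4 residual degrees of freedom, 36947 genes and transcripts). P-values were adjusted by Benjamini-Hochberg over all of them at 0.05. The code was tested on simulated data. All 8 arrays shared 1 slide and 1 scan. Deviations of same-numbered samples correlated at 0.475 to 0.679 in the ratios (6 pairs of time points) and at 0.214 to 0.565 within a genotype (12 pairs), and between WT and KO at -0.260 to 0.141 (16 pairs), so the numbers pair ratios and samples of 1 genotype. The alternatives were other background corrections and normalisations, the processed signals, the deposited matrix, probe filters and averages, the replicate block, the methods' t-test and leaving out each array.

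The 10 genes, the other lists and the markers were chosen with earlier results of these data known. Named genes are all 10 members, Furin and Lyz2, the nearest 2 genes of each member by r, up to 3 genes of a list with the largest change past the threshold, and Tnfaip3, Il10, Il6 and Tnf. Cd2, Cd79b, Gzma, Timd4, Fcgr1, Hdc, Elane, S100a8, Krt19 and Dcn were named after their values were seen. Of 55681 gene probes, 27509 were named through RefSeq identifiers.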

Additional observations from a re-analysis of the deposited data

How the results depend on the processing

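Of 1860 values of single members after LPS under the alternatives, 1746 kept their side of the threshold (13 of them, never called, changed sign), 73 no longer passed, 37 newly passed and 4 reversed. The 4 were Tollip with all probes averaged: 0.70 at 4 h and 0.42 between 1 and 4 h in WT, and 0.66 and 0.35 in KO, where the single probe gave -0.06, -0.18, -0.06 and -0.28. Of those that no longer passed, 44 came with the methods' t-test, under which 0, 2 and 0 of the 10 passed in WT and 0, 2 and 1 in KO at 1, 4 and 24 h. Leaving out 1 array gave 6 to 8 members past the threshold in WT at 1 h and 5 to 6 in KO. All 1380 KO/WT values stayed below the threshold, with 81 changes of sign. Loess alone moved the median of all genes by -0.16 between 1 and 4 h, and with it the falls of Tollip from 4 to 24 h no longer passed (adjusted p = 0.375 in WT and 0.311 in KO), nor did those of Tnip1 and Tnip3 in KO (0.0863 and 0.0684) or of Socs3 in WT (0.0594), and the WT rises of Socs1 and Irak3 at 1 h (0.134 and 0.143). It also added the rises of Sigirr from 4 to 24 h (0.00810 and 0.00506) and the fall of Tollip in KO between 1 and 4 h (0.0472). The cause was not tested. With the replicate block, Zfp36 in WT at 24 h, Sigirr in KO at 24 h and Tollip in KO between 1 and 4 h passed (adjusted p = 0.0303, 0.0380 and 0.0464), and no other member call changed. A dye term added to that block raised the newly passing calls to 8.

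Over all genes and transcripts the methods' t-test passed 0, 1835 and 12 in WT, against 3143, 12834 and 11225 with limma, and 0, 776 and 612 in KO, against 2784, 13282 and 10582. Leaving out 1 array gave 1807 to 3302 at 1 h in WT and 1445 to 2874 in KO, and the block with a dye term gave 4381 in KO. The count of KO/WT calls in the mean over times, 208, ranged from 1 without 0 h replicate 1 to 2219 with the replicate block, and was 129 with processed signals, 129 with averaged probes and 86 without the 4 h arrays, an alternative chosen after seeing the data. At 4 h the count of 3 ranged from 0 to 210, and at 24 h the count of 9 from 0 to 216. With 2 arrays a time, differences at a single time as large as that of Furin did not pass the adjustment without the replicate block.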
